A study of Mus musculus with 6 samples.

Results

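The genes described here encode the 5 subunits of the transcription factor NF-kB (Nfkb1, Nfkb2, Rela, Relb and Rel) and 5 inhibitors that restrain it (Nfkbia, Nfkbib, Nfkbie, Nfkbiz and Tnfaip3). They were chosen by gene symbol, and 9 of the 10 were found among the 19739 genes of the deposited table. Nfkbiz was not analysed here. The cells were primary BMSCs of the mouse, the mesenchymal stromal cells of bone marrow, which give rise to bone, cartilage and fat. All of them carried an AAV (adeno-associated viral vector) for overexpression of FTO, which erases N6-methyladenosine (m6A), a methyl mark on RNA. In 3 libraries the FTO was the form labelled WT and in 3 the form labelled 3KR, a name the labels do not spell out. The series title concerns SUMOylation of FTO and bone loss in inflammatory bowel disease. The labels give no strain, age, dose or time, and cells without the vector were not analysed here. The 6 libraries are inputs of an m6A sequencing assay, sequenced without enrichment for m6A, so they give transcript levels.

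NF-kB acts as a dimer of its subunits. In resting cells the dimers are held in the cytoplasm by IkB proteins, among them IkB alpha, beta and epsilon, which Nfkbia, Nfkbib and Nfkbie encode. Signals from tumour necrosis factor, interleukin-1 and Toll-like receptors activate a kinase complex that marks IkB for destruction, and the freed dimers switch on genes of inflammation. Several of these targets are inhibitors of the pathway itself, including IkB alpha and the ubiquitin-editing enzyme A20, the product of Tnfaip3, so the pathway feeds back on itself. In stromal cells of the marrow, NF-kB is known for its role in cytokine production and in restraining bone formation.

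Promoters of these genes are known to carry kB sites, the DNA element that NF-kB binds. RefSeq promoter windows (GRCm38.p6) were available for 7 of the 10 genes, 10 windows in all, since some genes have several starts. Nfkb1, Relb and Nfkbiz had no window, so their promoters were not searched. The 10-letter kB consensus was searched on both strands in the 250 bases before each start. A match was present in 7 of the 10 windows and in 5 of the 7 genes, while 3.90% of all 32851 promoter windows had one. Rela and Nfkbib had no match to these letters in their windows. The stretches around the matches in the other 5 of the 7 searched genes are shown because their windows hold the element. Matched bases are in capitals. Overlapping matches form runs of more than 10 capitals.
Nfkb2, chr19:46304658-46304736, plus strand: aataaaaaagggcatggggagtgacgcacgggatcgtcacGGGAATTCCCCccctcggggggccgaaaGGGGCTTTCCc
Rel, chr11:23771011-23771101, minus strand: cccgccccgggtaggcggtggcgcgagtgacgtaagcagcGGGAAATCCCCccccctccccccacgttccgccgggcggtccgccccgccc
Nfkbia, chr12:55492648-55492716, minus strand: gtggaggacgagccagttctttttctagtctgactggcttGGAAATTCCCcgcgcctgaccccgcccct
Nfkbie, chr17:45555554-45555643, plus strand: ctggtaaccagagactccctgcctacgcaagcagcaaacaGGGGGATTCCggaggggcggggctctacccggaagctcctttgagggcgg
Tnfaip3, chr10:19015411-19015575, minus strand: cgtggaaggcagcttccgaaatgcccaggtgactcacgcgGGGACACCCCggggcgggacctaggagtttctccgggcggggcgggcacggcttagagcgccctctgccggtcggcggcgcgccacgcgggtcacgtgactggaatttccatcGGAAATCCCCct
For Nfkb2 the stretch before the first of its 3 starts is printed. A match describes letters and does not show that a factor binds there.

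Rela was by far the most abundant transcript of the set, and the order of levels was nearly the same under both forms of FTO. Levels are in FPKM, which divides fragments by transcript length and by library total. The gene models behind the lengths were not given, so the order between genes holds only as far as those lengths do. In WT cells the mean was 80.6 FPKM for Rela, 35.6 for Nfkb2, 12.4 for Nfkb1 and 10.6 for Nfkbia. It was 8.80 for Tnfaip3, 8.21 for Relb, 4.09 for Rel, 4.01 for Nfkbib and 2.62 for Nfkbie. Tnfaip3 and Relb overlapped between libraries, as did Rel and Nfkbib, while the other neighbours in this order did not. In 3KR cells the order was the same but for Nfkbia (10.4 FPKM), which lay above Nfkb1 (8.71). Nfkb1 exceeded Nfkbia in all 3 WT libraries and lay below it in all 3 3KR libraries.

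**Figure D1:**
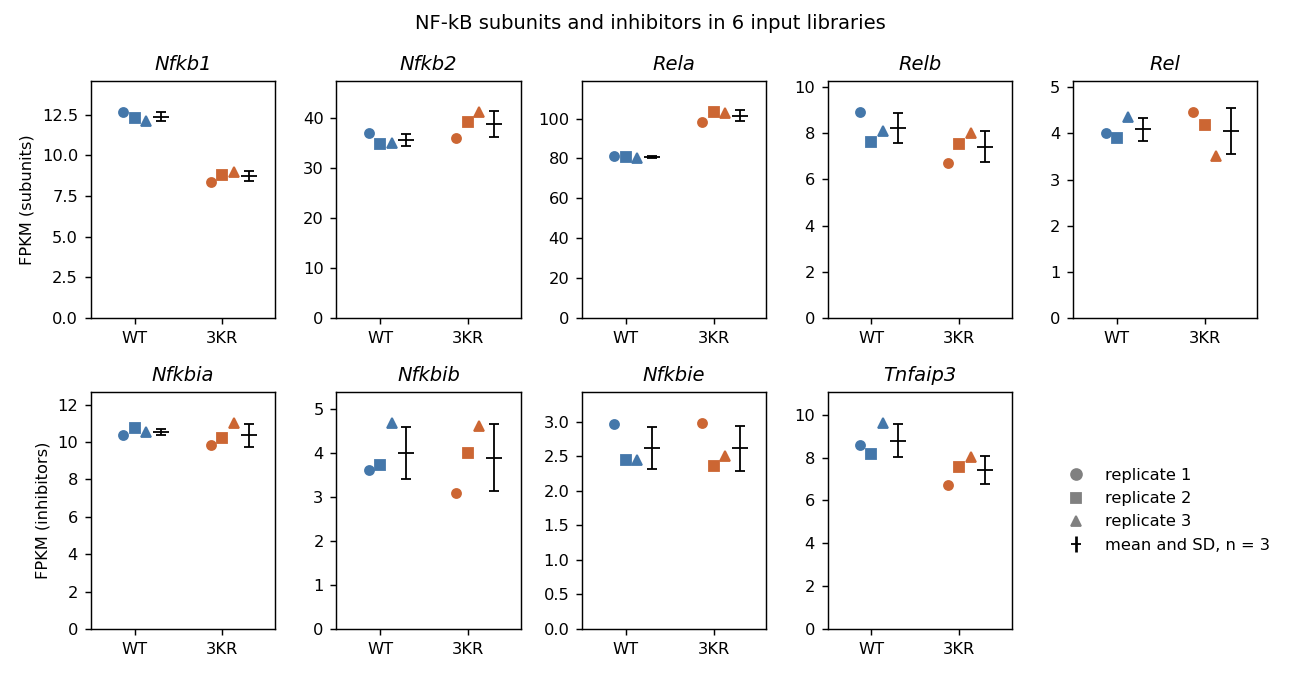
FPKM of each gene in the 3 WT and 3 3KR libraries, with subunits in the upper row and inhibitors in the lower row; each point is a library, and the bar gives the mean and SD (n = 3). The groups are apart for Nfkb1 (lower in 3KR), Rela (higher) and Tnfaip3 (lower), and they overlap for the other 6 genes.

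All values below have to be read against a shift of the whole transcriptome. Of 10985 genes with at least 1 FPKM in 3 or more libraries, 46.7% were higher and 14.0% lower in 3KR at a limma adjusted p under 0.05, and the median gene was higher by 0.15 on the log2(FPKM + 1) scale. The calls were therefore repeated after median ratio scaling, which centres the tested genes and left 21.6% higher and 24.1% lower. They were also repeated after rescaling each library to the same sum and after quantile normalization. Library totals were 390527 to 391767 FPKM in WT and 408605 to 421234 in 3KR, and Vim took 4.95% to 5.14% of that sum in WT against 8.27% to 8.71% in 3KR. Fto, the gene in the vector, had a mean of 258 ± 9.84 FPKM in WT against 443 ± 24.8 in 3KR (SD, n = 3), so the groups differed in the amount of Fto transcript as well as in its form. All 14 stromal markers examined were present. Over all 6 libraries Nt5e was the lowest of them, at a mean of 8.13 FPKM (10.3 in WT and 5.99 in 3KR). Within WT, Lepr was lower, at 3.69 FPKM. The depth of the libraries is unknown. Nothing in the labels tells whether replicates are different mice, different cultures or repeat preparations, so the p-values cover library-to-library spread that may be technical. In bulk RNA, fewer cells of a type and less RNA per cell cannot be told apart.

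Among the 9 genes, which all passed the filter, Rela rose and Nfkb1 and Tnfaip3 fell in 3KR on the deposited scale. The share of the set that was called higher, 1 of 9, compares with 46.7% of all tested genes, and the share called lower, 2 of 9, with 14.0%. These 3 calls were made under all 4 scalings, as they were for 21.5% (higher) and 13.9% (lower) of all tested genes. After median ratio scaling 1 of 9 was higher and 4 were lower, against 21.6% and 24.1% of all tested genes. Relb and Nfkbia joined the lower ones. With equal library sums 1 of 9 was higher and 3 were lower, where 33.5% and 18.1% of all tested genes were so called, and quantile normalization 1 and 4, against 28.6% and 19.9%. The groups did not overlap for 1 gene that was higher and 2 that were lower, as was the case for 51.2% and 15.5% of all tested genes. The median change of the 9 genes was -0.02 as deposited and -0.17 relative to the median gene. None of the 9 changed by as much as 2-fold.

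Rela encodes the subunit that carries the main activating domain of the classical NF-kB dimer. It was at 81.0, 80.7 and 80.2 FPKM in WT replicates 1 to 3 and at 98.2, 103.3 and 102.7 in 3KR. The 3 WT libraries lay within 1 FPKM of each other, and every 3KR library was higher. The mean went from 80.6 ± 0.400 to 101 ± 2.84 FPKM (SD, n = 3), 1.26-fold higher, a log2 difference of 0.33 (SE 0.03, limma adjusted p = 1.061e-04). Part of this rise is shared with the median gene: relative to it the change was 0.18, and after median ratio scaling it was 0.16 (95% interval 0.08 to 0.23, limma adjusted p = 0.00434). A change at least this far from the median gene was seen in 45.4% of all tested genes.

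Nfkb1 encodes a precursor that is itself IkB-like and is processed to the DNA-binding partner of RelA. It was at 12.7, 12.3 and 12.1 FPKM in WT replicates 1 to 3 and at 8.35, 8.82 and 8.95 in 3KR. The groups lay apart, with a gap of 3.17 FPKM between the lowest WT and the highest 3KR library. The mean fell from 12.4 ± 0.274 to 8.71 ± 0.312 FPKM (SD, n = 3), 1.42-fold lower, a log2 difference of -0.46 (SE 0.05, limma adjusted p = 8.387e-05). Set against the median gene the change was -0.61, and 10.4% of tested genes lay at least as far from it.

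Nfkb2, the precursor gene of the alternative pathway, and Relb, whose product pairs with its processed form, did not separate as deposited. Nfkb2 was at 36.9, 34.7 and 35.1 FPKM in WT and at 36.1, 39.2 and 41.2 in 3KR. The lowest 3KR library lay inside the WT range. Its log2 difference was 0.12 as deposited (limma adjusted p = 0.0857) and turned to -0.04 after median ratio scaling (limma adjusted p = 0.458, 95% interval -0.15 to 0.06). Relb was at 8.91, 7.63 and 8.08 FPKM in WT and at 6.69, 7.52 and 8.02 in 3KR. The ranges overlapped, and the log2 difference was -0.13 as deposited (limma adjusted p = 0.168). Relb was called lower under the 3 other scalings, by -0.28 after median ratio scaling (limma adjusted p = 0.0109). Rel, which encodes c-Rel, a subunit best known from lymphocytes, was at 4.004, 3.90 and 4.36 FPKM in WT and at 4.47, 4.18 and 3.51 in 3KR. The 3KR libraries held both the highest and the lowest value, and Rel was called under none of the 4 scalings (limma adjusted p = 0.891 as deposited, 95% interval of the log2 difference -0.20 to 0.17).

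Tnfaip3, the A20 gene, was the 1 inhibitor called as deposited. It was at 8.58, 8.18 and 9.63 FPKM in WT and at 6.72, 7.56 and 8.01 in 3KR. The groups did not overlap, but the lowest WT and the highest 3KR library were only 0.170 FPKM apart. The mean fell from 8.80 ± 0.752 to 7.43 ± 0.655 FPKM (SD, n = 3), 1.18-fold lower, a log2 difference of -0.22 (SE 0.08, limma adjusted p = 0.0387). The call as deposited was lost without WT replicate 1 (adjusted p = 0.0671), WT replicate 3 (0.129), 3KR replicate 1 (0.107) or 3KR replicate 2 (0.0692), and without the filter on low values (0.0973). After median ratio scaling the change was -0.37 (95% interval -0.53 to -0.20, limma adjusted p = 0.00363), and it was called in 6 of 6 fits that left out a library.

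The IkB genes showed no difference as deposited that exceeded the spread between libraries. Nfkbia, encoding IkB alpha, was at 10.39, 10.73 and 10.54 FPKM in WT and at 9.84, 10.24 and 11.04 in 3KR. The 3KR libraries lay on both sides of the WT range, and the log2 difference was -0.02 (limma adjusted p = 0.713, 95% interval -0.14 to 0.10). Since the median gene was higher in 3KR, Nfkbia was called lower after median ratio scaling, by -0.18 (95% interval -0.28 to -0.08, limma adjusted p = 0.0123), and after quantile normalization, but not after rescaling to the same sum (limma adjusted p = 0.107). Nfkbib, encoding IkB beta, was at 3.61, 3.73 and 4.69 FPKM in WT and at 3.08, 3.999 and 4.61 in 3KR. It had the widest spread of the set, a coefficient of variation of 14.8% in WT and 19.8% in 3KR, and its 95% interval ran from -0.33 to 0.25. Nfkbie, encoding IkB epsilon, was at 2.97, 2.44 and 2.44 FPKM in WT and at 2.99, 2.37 and 2.50 in 3KR. The means were equal to 3 digits, 2.62 ± 0.303 and 2.62 ± 0.326 FPKM (SD, n = 3), with a 95% interval of -0.20 to 0.20. Nfkbib and Nfkbie were called under none of the 4 scalings. On the deposited scale, changes of a size inside those intervals are not excluded by these libraries.

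**Figure D2:**
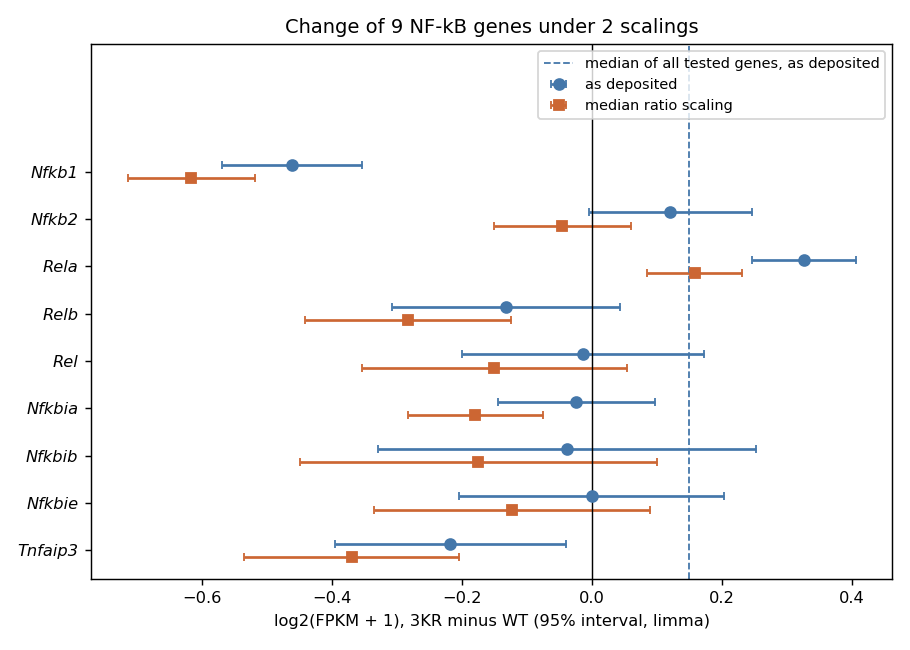
Difference of log2(FPKM + 1), 3KR minus WT, for the 9 genes with its 95% interval from limma, as deposited (circles) and after median ratio scaling (squares); the dashed line marks the median of all tested genes as deposited, 0.15. Nfkb1 and Tnfaip3 lie below 0 and Rela above 0 under both, while Relb and Nfkbia clear 0 after median ratio scaling.

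Ratios between 2 of these transcripts within a library do not depend on how the libraries are scaled against each other, and 5 were compared. Nfkb2/Nfkb1 was 2.92, 2.82 and 2.90 in WT and 4.32, 4.45 and 4.604 in 3KR. The groups were well apart, with means of 2.88 ± 0.0512 and 4.46 ± 0.143 (SD, n = 3), 1.55-fold higher in 3KR. Nfkbia/Rela was 0.128, 0.133 and 0.131 in WT and 0.1002, 0.0991 and 0.107 in 3KR. Each 3KR library thus held less IkB alpha transcript per Rela transcript than any WT library, 1.28-fold less in the mean. Relb/Rela was 0.110, 0.0946 and 0.101 in WT and 0.0682, 0.0727 and 0.0780 in 3KR, 1.39-fold lower without overlap. Tnfaip3/Nfkbia went from 0.834 ± 0.0763 to 0.716 ± 0.0290 (SD, n = 3), also without overlap. Nfkbie/Rela overlapped between the groups, at 0.0303 to 0.0366 in WT and 0.0229 to 0.0304 in 3KR. The exact permutation test, two-sided, gave p = 0.1 for the 4 ratios without overlap, the smallest that 3 against 3 libraries allow, and p = 0.2 for Nfkbie/Rela. Adjusted over the 5 ratios these were 0.125 and 0.2. This test cannot reach 0.05 with 3 against 3 libraries, so it makes no call either way. Lack of overlap was common in these data: 51.2% of single tested genes were higher and 15.5% lower without it as deposited. Ratios of other gene pairs were not compared. Each of the 5 ratios holds Rela, Nfkb1 or Tnfaip3, the genes called above, so the ratios are not separate evidence. For size, the log2 difference of Nfkb2/Nfkb1 was 0.63, with SDs within the groups of 0.03 and 0.05.

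**Figure D3:**
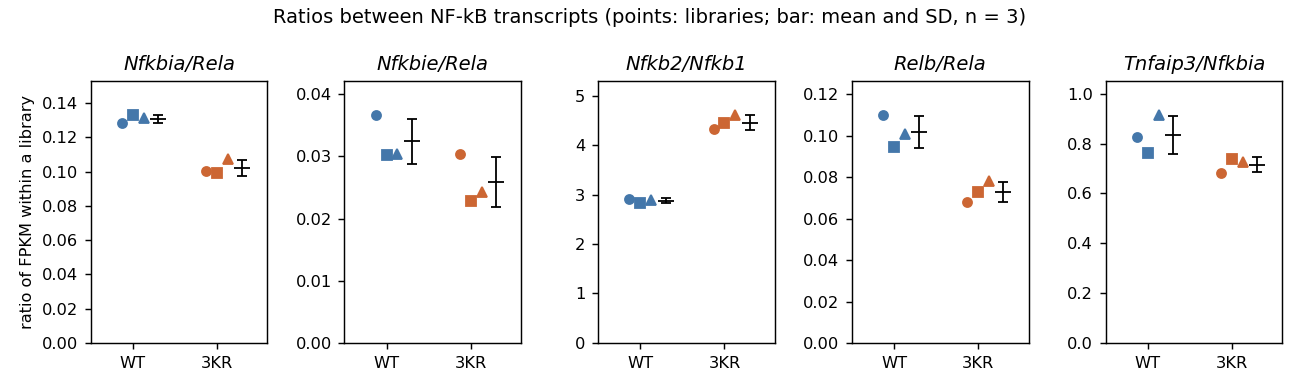
Ratio of the FPKM of 2 genes within each of the 6 libraries, with the mean and SD (n = 3) beside the points. The WT and 3KR libraries are apart for Nfkbia/Rela, Nfkb2/Nfkb1, Relb/Rela and Tnfaip3/Nfkbia and overlap for Nfkbie/Rela.

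As parts of the subunit pool, Rela made up 57.3% ± 0.755 of the summed subunit FPKM of WT libraries and 63.2% ± 0.689 of that of 3KR libraries (SD, n = 3). Nfkb1 made up 8.77% ± 0.0960 and 5.43% ± 0.0182, and Relb 5.82% ± 0.366 and 4.61% ± 0.262. Nfkb2 held 25.3% ± 0.426 and 24.2% ± 0.806. The pool summed to 141 ± 2.33 FPKM in WT and 160.4 ± 5.81 in 3KR, and the 4 inhibitors to 26.0 ± 1.18 and 24.3 ± 1.77. The subunit pools did not overlap between the groups, at 139 to 144 FPKM in WT and 154 to 164 in 3KR, and the inhibitor pools did, at 25.1 to 27.3 and 22.6 to 26.2. Of all tested genes 51.2% were higher without overlap. The subunit pool was 1.14-fold higher, beside 1.11-fold for the median gene, which was taken from log2(FPKM + 1). The subunits did not rise together. From WT to 3KR, mean FPKM went from 80.63 to 101.4 for Rela and from 35.57 to 38.82 for Nfkb2. It went from 12.36 to 8.705 for Nfkb1, from 8.205 to 7.409 for Relb and from 4.088 to 4.052 for Rel.

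Of 14 listed ligands that start the pathway, 10 had values, and most of these were near 0. Il33 was the most abundant of those listed in WT, while in 3KR Il33 and Tnfsf11 had about the same mean. Tnf, Il1a, Lta, Ltb and Tnfsf13b were each under 0.1 FPKM in the mean of both groups, and Il1b was listed at 0 in all libraries. Only 4 of the 14 listed ligands could be tested, and 3 were lower in 3KR under all 4 scalings, as were 13.9% of all tested genes. Il18 was under 1 FPKM in every 3KR library and passed the filter only through WT, so its place among the 3 rests on that. Il33, an alarmin of the interleukin-1 family, went from 19.4 ± 1.39 to 5.41 ± 0.591 FPKM (SD, n = 3), Tnfsf12, which encodes TWEAK, from 2.31 ± 0.174 to 1.47 ± 0.227, and Il18 from 1.41 ± 0.254 to 0.676 ± 0.203. The fourth, Tnfsf11, which encodes RANKL, was at 5.60 and 5.41 FPKM (limma adjusted p = 0.572 as deposited) and was called lower under 2 of the 4 scalings. Of 18 tested receptors and adaptors, 9 were lower under all 4 scalings, against 13.9% of all tested genes, and 1, the adaptor Tirap, named after its value was seen, was higher as deposited only. Il1rl1, the receptor for interleukin-33, fell from 48.0 ± 1.295 to 27.9 ± 0.580 FPKM, and the receptors Tlr3 and Tlr2 from 15.3 ± 1.03 to 7.59 ± 0.353 and from 11.5 ± 0.281 to 5.34 ± 0.556. The median change of the receptor list relative to the median gene was -0.29.

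The kinases, ubiquitin ligases and scaffolds between receptor and IkB moved in both directions. Of 28 tested, 15 were higher and 4 lower as deposited, where 46.7% and 14.0% of all tested genes were, and 5 and 8 after median ratio scaling, where 21.6% and 24.1% were. The median relative change of the list was 0.02. Under all 4 scalings 5 of the 28 were higher and 4 lower, where 21.5% and 13.9% of all tested genes were. Among the 5, Ripk2, the kinase that acts with NOD receptors, rose from 16.0 ± 0.784 to 33.1 ± 1.32 FPKM (SD, n = 3). Chuk, Tab3, Malt1 and Btrc, named after their values were seen, were also higher under all 4. Map3k8 fell from 2.74 ± 0.195 to 1.66 ± 0.115 FPKM and the ubiquitin ligase gene Birc3 from 9.57 ± 0.545 to 6.87 ± 0.444, and Map3k14, the kinase of the alternative pathway, and Traf2, both named after their values were seen, were lower under all 4 scalings too. Of 18 tested other feedback regulators, 7 were higher and 3 lower as deposited, shares near those of all tested genes, and 0 and 8 after median ratio scaling. Under all 4 scalings 0 of the 18 were higher and 3 lower, where 21.5% and 13.9% of all tested genes were. Zc3h12a, an RNase that degrades cytokine transcripts, fell from 7.05 ± 0.433 to 3.14 ± 0.0835 FPKM. Bcl3, a nuclear IkB-like protein, fell from 18.1 ± 1.03 to 9.51 ± 0.995, and Pdlim2 from 4.88 ± 0.136 to 2.87 ± 0.306. The relative log2 changes of these 3 were -1.11, -1.02 and -0.76, where the largest among the 9 subunits and inhibitors was -0.61, for Nfkb1. These 3 had the smallest p of their list and do not stand for it. The median relative change was -0.07 for the 18 regulators and -0.17 for the 9 subunits and inhibitors.

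Transcripts known as NF-kB targets moved much further than the subunits and inhibitors. Of 26 tested, 17 were lower and 7 higher in 3KR as deposited, against 14.0% and 46.7% of all tested genes, with a median relative log2 change of -1.22. Il6, Nos2 and Mmp9, named after their values were seen, were under 1 FPKM in every 3KR library and passed the filter only through WT. They count among the lower genes here and under all 4 scalings and enter the median, so these values rest partly on the filter. Mmp13 and Mmp3, proteases of the matrix, fell from 822 ± 31.1 to 136 ± 3.11 and from 489 ± 15.1 to 88.3 ± 6.30 FPKM (SD, n = 3), and the acute-phase gene Saa3 from 553 ± 25.9 to 21.8 ± 2.90. Under all 4 scalings 16 of the 26 were lower and 5 higher, against 13.9% and 21.5% of all tested genes. The 5 higher ones, named after their values were seen, were Ccnd1, Icam1, Bcl2l1, Ier3 and Csf1. Several genes of this list answer to other factors as well, and the list was drawn up with earlier results of these data known, so it does not measure NF-kB activity. Markers of macrophages, neutrophils and endothelial cells were lower in 3KR in their summed level, which was low in both groups. Of 14 markers of macrophages and monocytes, 13 were lower in 3KR by their means and Ccr2 was listed at 0, and their FPKM summed to 9.86 to 10.99 in WT and 1.56 to 3.06 in 3KR. Mpeg1 was the highest of them, at 6.79 FPKM in WT and 0.854 in 3KR. The 7 endothelial markers summed to 6.54 to 7.42 in WT and 2.53 to 2.83 in 3KR, led by Tek, with 5 of them lower in 3KR by their means, Kdr, named after its value was seen, higher (0.139 and 0.335 FPKM) and Tie1 listed at 0. The 4 neutrophil markers in the table were all under 1 FPKM, summed to 0.309 to 0.578 in WT and 0.0231 to 0.212 in 3KR, and had Csf3r listed at 0. The 3 lymphocyte markers went the other way, from 0 in WT to a sum of at most 0.0579 in 3KR, with Cd4 and Cd79b listed at 0. Markers of the stromal cells themselves moved in both directions, 9 of 14 lower and 5 higher in 3KR by their means. Among them, and named after their values were seen, the means of WT and 3KR were 409 and 70.3 FPKM for Cxcl12 and 3.69 and 16.9 for Lepr. The part of any of these cells in the changes was not tested.

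**Figure D4:**
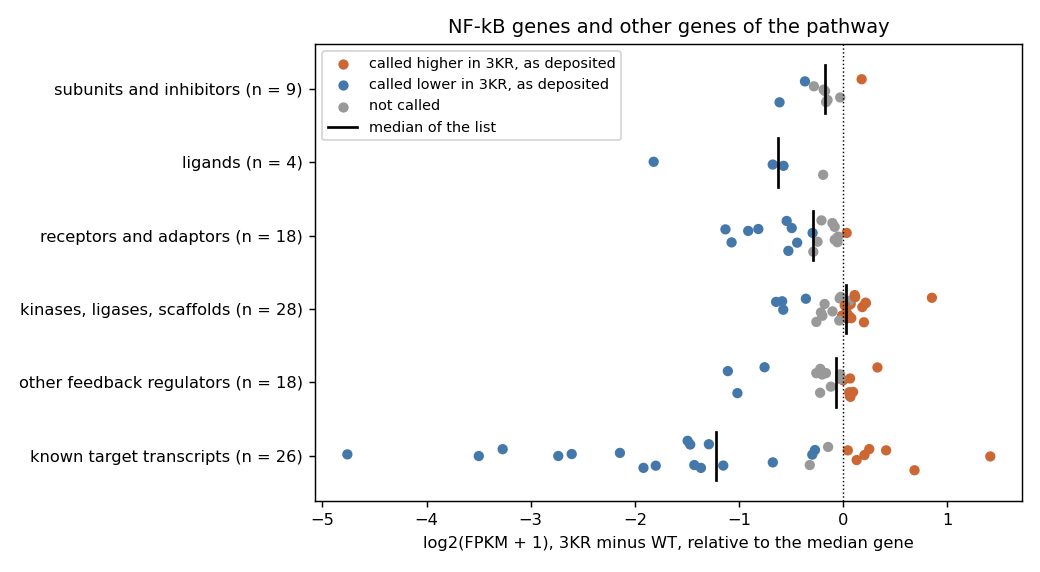
Change of each tested gene relative to the median gene (log2(FPKM + 1), 3KR minus WT), for the 9 subunits and inhibitors and for 5 lists of other genes of the pathway; points are genes, colours give the call as deposited, and black bars the list medians. The 9 genes lie between -0.61 and 0.18, while known targets lie between -4.76 and 1.41.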

How the data were processed

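The deposited table gives 1 value per gene and library in FPKM, per the file headers. The authors' aligner, quantifier and gene models were not given in the sources used here, and GRCh38, a human assembly, is what the submitters' processing notes name. Symbols and organism are mouse, so no coordinates were attached to the values. Of 19763 rows, 24 repeated a gene name, of which the one with the highest mean stayed. Among genes under 2 FPKM the most frequent ratio between libraries was shared by 16 of 5669 genes, so counts could not be recovered.

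Genes with at least 1 FPKM in 3 of 6 libraries, 10985 in all, were compared as log2(FPKM + 1) with limma 3.58.1 in R 4.3.3 (intensity trend, Benjamini-Hochberg over all genes, threshold 0.05, no covariates). Same-numbered WT and 3KR libraries deviated from their group means with correlations of -0.03 to 0.03, so the numbers were not taken as pairs. Genes named were the 9 members, up to 3 with the smallest p per pathway list, and Fto. Members and lists were chosen with earlier results of these data known. Alternatives were another pseudocount, other filters and scalings, a replicate block, array weights, no trend and leaving out each library. Leaving out libraries together with median ratio scaling was added after seeing the data. Promoter sequences are from RefSeq, matched by symbol.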

Additional observations from a re-analysis of the deposited data

How the results depend on the processing

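Rela was called higher and Nfkb1 lower under all 15 alternatives, with log2 changes of 0.16 to 0.35 and -0.62 to -0.43. Median ratio scaling gave 2371 genes higher and 2645 lower among all tested, and quantile normalization 3142 higher, against 5127 and 1535 as deposited. The count of members called lower, 2 as deposited, was 4 after median ratio scaling and after quantile normalization, where Relb and Nfkbia were added, and 1 without a filter on low values. Without that filter 1760 of all 19026 genes were lower. Array weights called 2 of 9 members higher, adding Nfkb2, beside 5377 of all 10985 tested genes. Leaving out a library left 1 to 2 members higher and 1 to 2 lower, and 4328 to 5164 of all genes higher and 1386 to 1474 lower. Without 3KR replicate 1, Nfkb2 was called higher, by 0.17 (limma adjusted p = 0.0151).

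Small uncalled values changed sign. Nfkb2 went to -0.045 after median ratio scaling. When a library was left out, Rel ranged from -0.073 (without 3KR replicate 1) to 0.066 (without 3KR replicate 3), Nfkbia from -0.065 (3KR replicate 3) to 0.010 (3KR replicate 1), Nfkbib from -0.14 (3KR replicate 3) to 0.087 (3KR replicate 1) and Nfkbie from -0.072 (3KR replicate 1) to 0.068 (WT replicate 1). After median ratio scaling, Nfkb1, Rela, Tnfaip3, Relb and Nfkbia were each called in 6 of 6 fits without a library, with adjusted p up to 0.0456 (Nfkbia).

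Of the ratios, leaving out a library gave log2 differences of 0.61 to 0.65 for Nfkb2/Nfkb1, -0.39 to -0.33 for Nfkbia/Rela, -0.53 to -0.42 for Relb/Rela, -0.28 to -0.15 for Tnfaip3/Nfkbia and -0.45 to -0.24 for Nfkbie/Rela. The upstream kinase list had 8 higher and 8 lower after rescaling to the same sum, beside 33.5% and 18.1% of all tested genes. It had 5 and 8 after median ratio scaling, beside 21.6% and 24.1%, and 7 and 7 after quantile normalization, beside 28.6% and 19.9%. At 5 FPKM or more only 20 of the 28 were tested, without Map3k8, Map3k14 and Traf2, and 1 was lower, beside 1140 of 7381 genes. Leaving out a library gave 9 to 14 higher, beside 4328 to 5164 of all genes. WT replicate 2 and 3KR replicate 3 gave the 9. The other feedback regulators had 2 higher after rescaling to the same sum, 0 higher and 8 lower after median ratio scaling, 1 higher after quantile normalization and 4 higher without a filter. The single receptor or adaptor called higher became 0 under the 3 other scalings, the filter at 5 FPKM and the replicate block, and 0 to 1 when a library was left out. Ligands called lower went from 3 to 1 at 5 FPKM or more, where 2 were tested. With a replicate block 4926 genes were higher and 1499 lower, and the calls of the 9 members stayed as in the fit without it. The cause of these differences was not tested. Since the depth is unknown, no detection limit can be given for the low genes.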
